A study of Oryctolagus cuniculus with 134 samples.

Results

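The aortas of rabbits fed lard were compared with the aortas of rabbits fed cholesterol. The comparison took every aortic library labelled Lard (7 libraries) and every aortic library labelled cholesterol (6 libraries, written CHT here), which made 13 of the 134 libraries of the study. The animals were male New Zealand White rabbits that were 12 weeks old at the start of a 16-week protocol, and RNA was sequenced from the aorta and the heart valves, 5 tissues in all. Lard rabbits ate chow with 5% lard and CHT rabbits ate chow with 0.3% cholesterol, and both diets came with vitamin D2 at 25000 U per day for 15 days. Control rabbits (Ctrl, 7 aortic libraries) ate chow without either fat and without vitamin D2, so a difference from Ctrl cannot be split between the fat and the vitamin. A further group, IR/CHT (7 libraries), was fed as CHT and also irradiated, and its aortas entered the fit through the low-count filter, the scaling and the shared estimate of spread, but not the contrast. Each library came from the proximal aorta of a different rabbit, and all 13 were prepared on plate 2.

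The vessel wall reads its own cholesterol content through a pair of opposed sensors. When sterol is scarce, the transcription factor SREBP2 switches on the genes for making cholesterol and for taking it up. When sterol is plentiful, oxysterols and sterol intermediates activate the liver X receptors (LXR), which switch on export genes. Macrophages that take up lipoprotein faster than they export it become foam cells, the cells of the fatty streak, and cells of the wall can in turn adopt cartilage-like or bone-like programmes on the way to calcification.

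Sequencing depth was even, at 17287664 to 22128828 read pairs counted in genes per library. Levels are given in CPM, the counts of a gene scaled to a common library size, and 1 CPM stood for at least 17.3 read pairs, a counting error of at most 24.1%. The tissue label fitted the markers: 16 smooth muscle contractile genes summed to 58577 to 112290 CPM in the Lard aortas and to 37112 to 88632 CPM in the CHT aortas, against 302.7 to 581.97 and 563.96 to 1231 CPM for 16 macrophage markers. Of the 13 protein-coding genes of the mitochondrial genome, 10 stood at 1 of 2 levels that did not follow diet. CYTB was read at 1540 to 2340 CPM in 9 of the 13 aortas and at 3.56 to 4.91 CPM in the other 4 (Lard L562 and L563, CHT L559 and L572), and entering that level as a covariate, an alternative chosen after seeing the data, gave 1331 calls in place of the 1382 described next.

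Of 14777 genes tested, 1382 (9.35%) differed between Lard and CHT at an adjusted p below 0.05 and more than 1.5-fold (edgeR's quasi-likelihood test with Benjamini-Hochberg adjustment). The great majority were lower on Lard: 1083 genes (7.33%) against 299 (2.02%) that were higher. The share of calls that were higher was 21.6%, and it moved to 26.7% with upper quartile scaling and to 5.69% when the test itself required a 1.5-fold change. In 675 genes (4.57%) the 13 libraries separated completely by diet, with every Lard aorta above every CHT aorta in 114 (0.771%) and below in the others (3.8% of all genes tested). With the same thresholds, 380 genes (2.57%) were higher and 6 (0.0406%) lower on Lard than in Ctrl, while 2098 (14.2%) were higher and 765 (5.18%) lower on CHT than in Ctrl. These comparisons use the same Lard, CHT and Ctrl libraries, so each is given with its own values and none checks another. List counts against Ctrl below are to be read beside these shares, and counts without overlap beside the 4.57%.

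**Figure D1:**
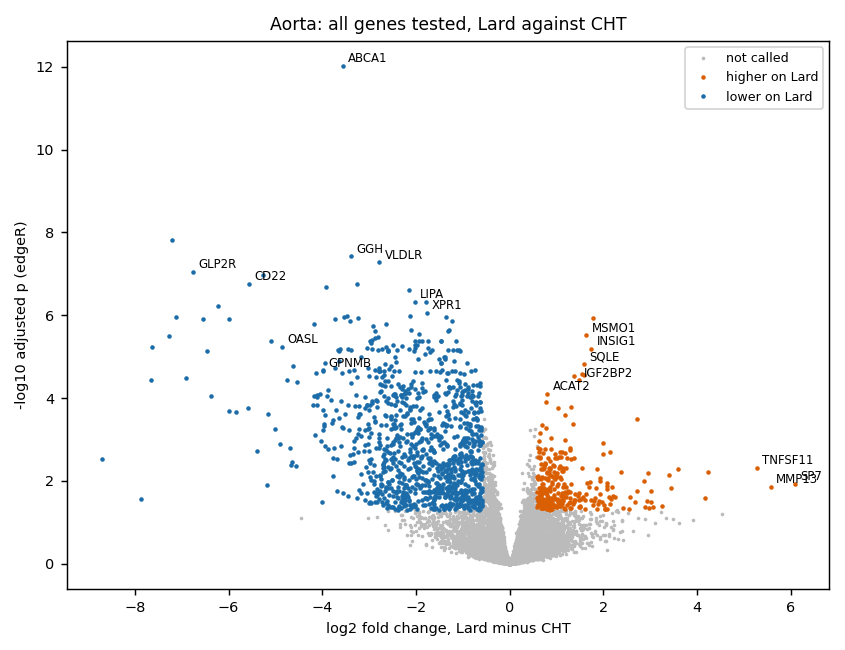
Each point is 1 of the 14777 genes tested in the aorta, with the log2 fold change of Lard against CHT on the x axis (positive is higher on Lard) and −log10 of the adjusted p (edgeR) on the y axis. Called genes are coloured, 1083 lower and 299 higher on Lard, with ABCA1 uppermost at −3.56 and MSMO1, INSIG1 and SQLE uppermost among the named genes on the right, at 1.58 to 1.75.

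The genes of sterol synthesis and uptake were higher on Lard than on CHT. Of 18 measured, 12 were called higher (66.7%, against 2.02% of all genes) and 0 lower, and in 11 the diets did not overlap. The median log2 difference was 0.92 against 0.05 over all genes. MSMO1, a C-4 demethylase of the sterol pathway, ranged from 12.2 to 21 CPM in the Lard aortas (median 13.6) and from 3.38 to 5.71 CPM in the CHT aortas (median 5.13). Every Lard library stood above every CHT library, and the log2 difference was 1.64 (SE 0.20, edgeR adjusted p = 3.04e-06). INSIG1, which holds the SREBP complex in the endoplasmic reticulum and is itself an SREBP target, was 1.75 higher on the log2 scale (SE 0.23, edgeR adjusted p = 6.44e-06), with 14.3 to 30 CPM on Lard and 4.61 to 7.11 CPM on CHT. SQLE, which makes squalene epoxide, was at 14 to 25.9 CPM on Lard and 5.02 to 8.78 CPM on CHT, a log2 difference of 1.58. The 10 higher genes with a symbol and the smallest p also included CYP51A1 (1.55), HMGCS1 (1.59), FDFT1 (1.37) and ACAT2 (0.80), all enzymes on the way from acetyl-CoA to cholesterol. In these 4 genes, too, the lowest Lard library exceeded the highest CHT library.

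Lard library L563 was the highest of the 7 for MSMO1, INSIG1, SQLE, CYP51A1 and HMGCS1. Against Ctrl, 0 of 18 genes were called on Lard (edgeR, 1 gene at an unadjusted p below 0.05, 0 by DESeq2) with a median log2 difference of 0.08, and on CHT 13 were lower and 1 higher, with a median of −0.83. SQLE, for example, was at 14.7 to 33.3 CPM in Ctrl.

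**Figure D2:**
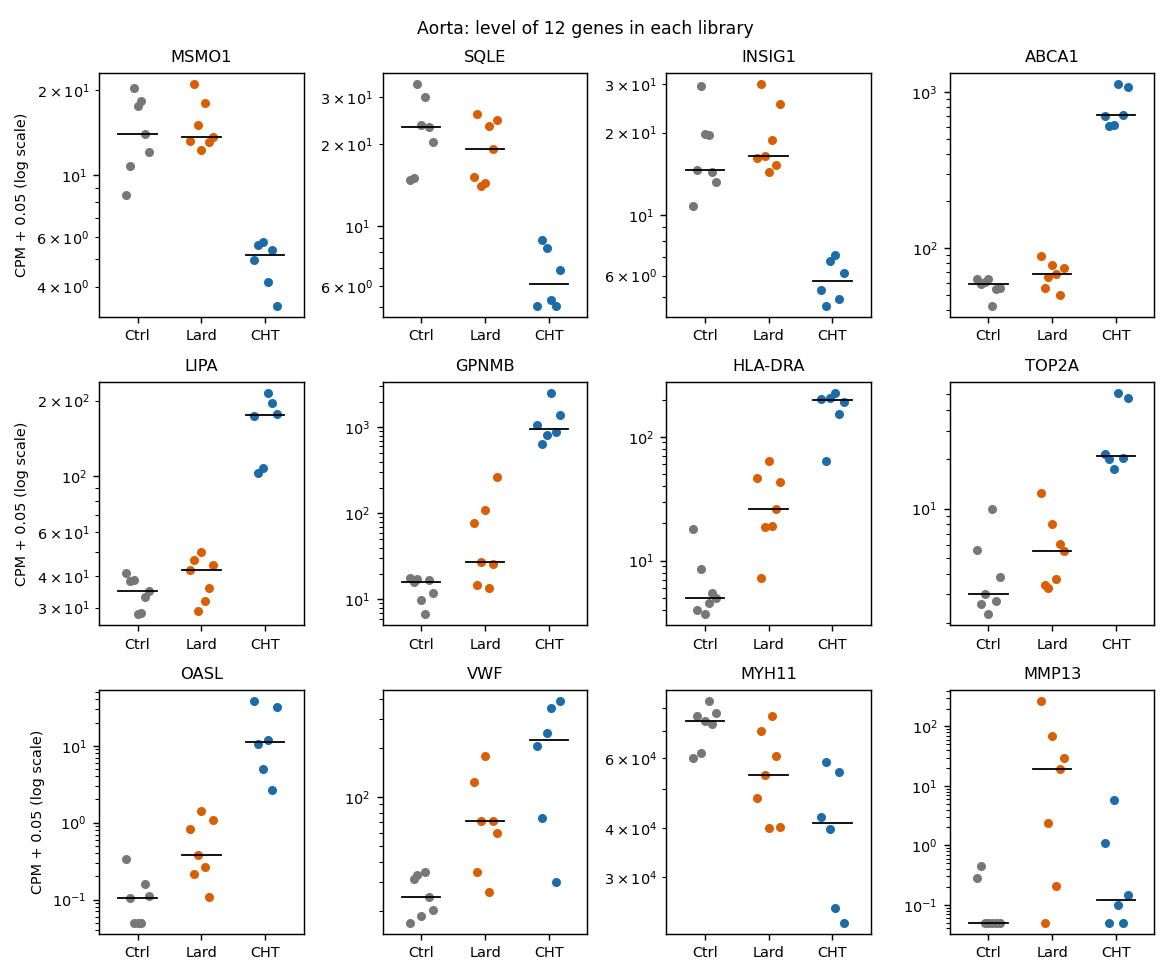
Each dot is 1 aortic library and the black line the median of its group, for Ctrl, Lard and CHT, in CPM plus 0.05 on a log axis, 1 panel per gene. MSMO1, INSIG1 and SQLE are lowest on CHT, ABCA1 and GPNMB are highest on CHT with no overlap, and MMP13 spreads from 0 to 263.8 CPM across the Lard aortas.

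The LXR targets moved the other way. ABCA1, the transporter that loads cholesterol onto apolipoprotein A-I, ranged from 49.95 to 88.3 CPM on Lard (median 67.9) and from 608 to 1122 CPM on CHT (median 710), and from 42.7 to 63.5 CPM in Ctrl. It had the smallest p of all genes (log2 difference −3.56, SE 0.19, edgeR adjusted p = 9.37e-13), and the highest Lard library lay far below the lowest CHT library. Of 6 LXR targets measured, 4 were lower on Lard (66.7%, against 7.33% of all genes) and 0 higher, all 4 without overlap. The others were NR1H3, which encodes LXR alpha itself (−2.03), PLTP, a phospholipid transfer protein (−1.98), and LPCAT3, which remodels phospholipids (−0.88). MYLIP, the ligase that degrades the LDL receptor, was at 67.1 to 114 CPM on Lard and 95.1 to 134 CPM on CHT and was not called (−0.24, adjusted p = 0.274). None of the 6 was called against Ctrl on Lard (edgeR, 2 at an unadjusted p below 0.05, 1 by DESeq2), while 4 were higher on CHT.

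**Figure D3:**
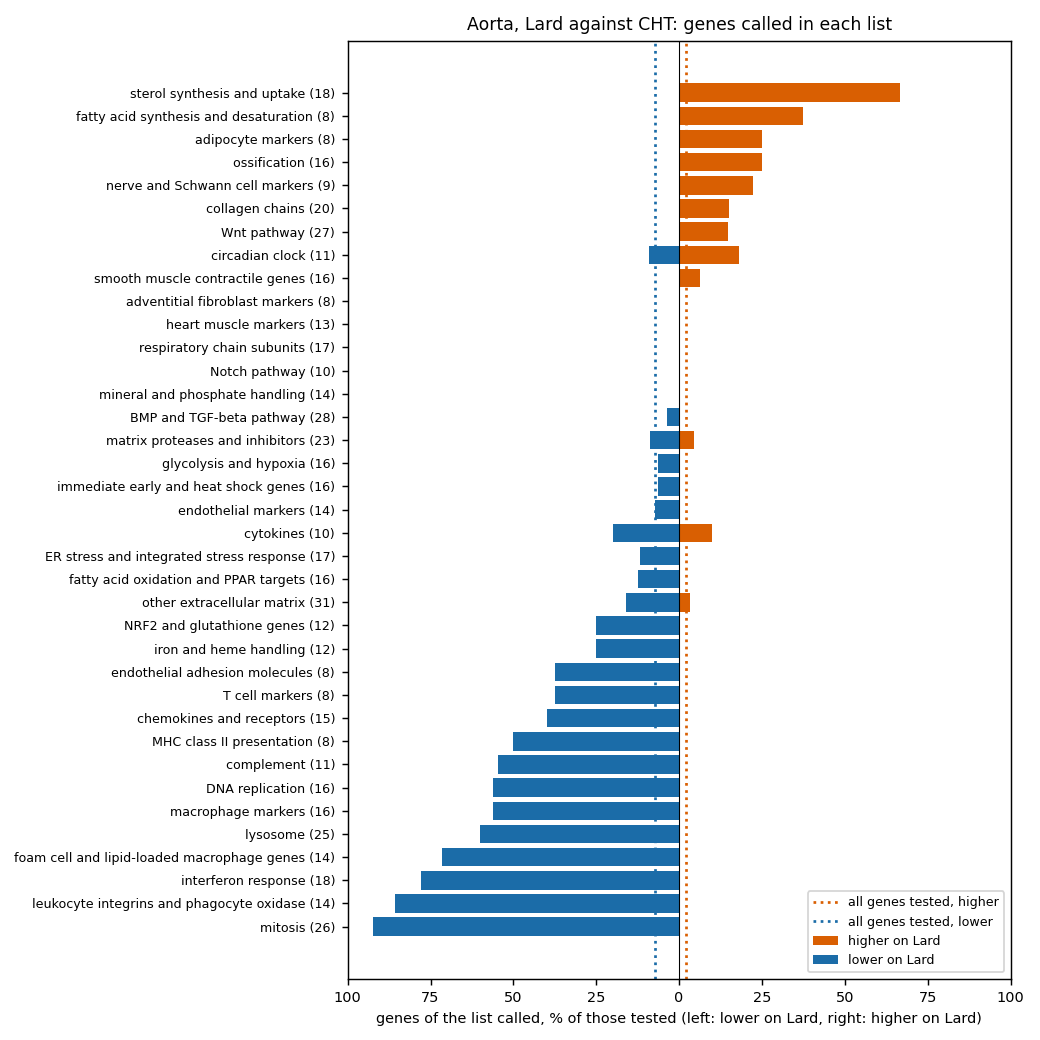
For each gene list with at least 8 tested genes, bars give the percentage of its genes called higher (right) or lower (left) on Lard than on CHT, and dotted lines mark the shares over all genes tested, 2.02% and 7.33%. The sterol list extends to the right, and mitosis, leukocyte integrin, lysosome, interferon and foam cell lists extend to the left.

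Of 8 genes of fatty acid synthesis and desaturation, 3 were higher on Lard (37.5%, against 2.02% of all genes): ACSS2, which makes acetyl-CoA from acetate (0.76), ELOVL6, an elongase (0.59), and THRSP, a lipogenic regulator read at 0.175 to 9.8 CPM on Lard and 0 to 0.88 CPM on CHT (3.26, adjusted p = 0.0415). The count fell to 1 in some fits that left out 1 library, and ELOVL6 and THRSP were each called in 6 of the 13 such fits. Among 16 genes of fatty acid oxidation and PPAR targets, 2 were lower (12.5%, against 7.33%), both uncoupling proteins: UCP2 (−2.10) and UCP3 (−1.73). PDK4 and ANGPTL4, classical PPAR targets, differed by −0.68 (adjusted p = 0.151) and 0.20 (adjusted p = 0.855).

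Several of the strongest differences lay outside the lipid lists. GGH, a lysosomal hydrolase of folate polyglutamates, was at 4.74 to 6.96 CPM on Lard and 35.6 to 120 CPM on CHT (−3.38). VLDLR, a lipoprotein receptor, was at 7.76 to 11.9 CPM on Lard and 37.4 to 96.6 CPM on CHT (−2.79). GLP2R, the receptor for glucagon-like peptide 2, was close to absent on Lard, at 0 to 0.21 CPM, and at 4.32 to 17.5 CPM on CHT. CD300LF and CD22, both inhibitory receptors of leukocytes, were at no more than 1.52 and 2.41 CPM in any Lard aorta and at no less than 10.4 and 19.1 CPM in any CHT aorta. HPRT1, a purine salvage enzyme often used as a reference gene, was itself lower (−1.79), with 10.1 to 17.3 CPM on Lard and 26.8 to 59.1 CPM on CHT. XPR1, a phosphate exporter, was also lower (−1.77). The 10 genes with a symbol and the smallest p in each direction, these included, were called in all 13 fits that left out 1 library. Among the 10 that were higher were also IGF2BP2, an RNA-binding protein (1.47), HOMER2, a synaptic scaffold protein (1.31), and TSC22D3, a glucocorticoid-induced gene (1.04).

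Macrophage genes were lower on Lard than on CHT. In bulk tissue, fewer cells of a type and less RNA per cell cannot be told apart, and this holds for every marker list here. Of 16 macrophage markers, 9 were lower (56.2%, against 7.33% of all genes) and 0 higher (median −1.71), with no overlap in 7. CD68, a lysosomal glycoprotein of macrophages, ranged from 9.14 to 73 CPM on Lard (median 15.6) and from 127 to 262.6 CPM on CHT (median 198.7), a log2 difference of −2.79 (SE 0.40, edgeR adjusted p = 2.25e-05). CD14, the lipopolysaccharide co-receptor, differed by −2.91 and CSF1R, the receptor for macrophage colony-stimulating factor, by −1.28, the latter with overlap. CD163, the haemoglobin scavenger receptor of resident macrophages, did not move with the others: it was at 10.8 to 36.3 CPM on Lard and 10.1 to 28.5 CPM on CHT (0.18, SE 0.33, adjusted p = 0.796). Against Ctrl, 8 of the 16 were higher on Lard and 12 on CHT.

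The Lard aortas were not alike in these genes. L578, L562 and L575 held the highest CD68, at 73, 47.4 and 24.4 CPM, whereas the other 4, at 9.14 to 15.6 CPM, lay within the Ctrl range of 7.02 to 17 CPM. Among the CHT aortas, L560 was the lowest for 14 of the 16 macrophage markers.

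Genes of lipid-loaded macrophages were lower on Lard, too. Of 14 measured, 10 were lower on Lard (71.4%, against 7.33% of all genes) and 0 higher (median −1.68). GPNMB, a glycoprotein of foam cells, ranged from 13.4 to 267.9 CPM on Lard (median 27.5) and from 642 to 2522 CPM on CHT (median 971), a log2 difference of −3.99 (SE 0.57, edgeR adjusted p = 2.13e-05). Lard L578 alone held 267.9 CPM, and the next, L575, held 110 CPM. FABP5, a fatty acid carrier, differed by −2.94, LIPA, the lysosomal acid lipase that frees cholesterol from its esters, by −2.02, and PLIN2, the coat protein of lipid droplets, by −1.34, each without overlap. Not all foam cell genes followed: CHI3L1 (−0.56, adjusted p = 0.653), LPL, lipoprotein lipase (0.01, adjusted p = 0.997), and CD36, a scavenger receptor (−0.32, adjusted p = 0.697), overlapped widely.

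MMP12, the macrophage elastase, was at 136 to 620 CPM on CHT and at 0.107 to 156.8 CPM on Lard, where L578, L575 and L562 held 156.8, 108 and 52.4 CPM and L576 0.107 CPM. Its log2 difference was −2.66 (adjusted p = 0.0175) and was no longer called without CHT L572. In Ctrl it did not exceed 0.398 CPM.

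The lysosome followed the same direction. Of 25 lysosomal genes, 15 were lower on Lard (60%, against 7.33% of all genes) and 0 higher (median −0.97), and 16 did not overlap. CTSB, the protease cathepsin B, was at 366 to 803 CPM on Lard and 1307 to 3695 CPM on CHT (−2.10). CTSK, a collagen-degrading cathepsin, differed by −1.18, GUSB, a glucuronidase, by −2.01, and ATP6V1B2, a subunit of the proton pump, by −1.15. Iron and haem genes held 3 lower of 12 (25%, against 7.33% of all genes), with a list median of −0.17: FTL, the ferritin light chain (−1.85), HMOX1, haem oxygenase 1 (−1.94), and SLC11A2, an iron importer (−0.84). SLC40A1, the iron exporter ferroportin, was not called (−0.21, adjusted p = 0.446).

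Antigen presentation and phagocyte genes were lower as well. Of 8 MHC class II genes, 4 were lower on Lard (50%, against 7.33% of all genes). They were HLA-DMA, which loads peptides (−3.25), HLA-DRA, the class II alpha chain (−2.44), CD74, the invariant chain (−2.06), and CTSS, the protease that trims it (−2.81). HLA-DRA ranged from 7.24 to 63.6 CPM on Lard and from 63.9 to 226 CPM on CHT, so that the highest Lard library, L575, all but met the lowest CHT library, L560. CIITA, the master regulator of class II genes, was at 0 to 4.63 and 2.41 to 17.7 CPM and missed the threshold (−1.94, adjusted p = 0.0597). Of 14 leukocyte integrin and phagocyte oxidase genes, 12 were lower (85.7%, against 7.33% of all genes, median −2.51). ITGAM, the CD11b integrin, was at 2.24 to 48.2 CPM on Lard and 39.3 to 166.1 CPM on CHT, and only Lard L578 reached into the CHT range. This library was the highest of the Lard aortas for 11 of the 14 genes, and CHT L560 was the lowest of its group for 12. Against Ctrl, 9 of the 14 were higher on Lard and all 14 on CHT.

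Lymphocyte markers were lower in part. Of 8 T cell markers, 3 were lower on Lard (37.5%, against 7.33% of all genes): CD28, a co-stimulatory receptor (−4.11), IL7R, the interleukin 7 receptor (−2.32), and CD2, an adhesion receptor (−2.90), and their list summed to 0.892 to 14.5 CPM on Lard and 15.5 to 36.7 CPM on CHT. Of 3 B cell markers that passed the filter, CD22 and JCHAIN, the joining chain of secreted antibodies (−2.26), were lower (66.7%, against 7.33% of all genes). The other had a positive log2 difference and was not called. The 3 summed to 1.39 to 7.03 CPM on Lard and 22.003 to 74.9 CPM on CHT, where CD22 alone was at 19.1 to 55.7 CPM. Of 5 neutrophil markers, 0 were called (edgeR, 1 at an unadjusted p below 0.05, 0 by DESeq2), with a list median of 1.49. Against Ctrl, 3 of the 5 were higher on Lard and 1 on CHT. Their sum reached 110 CPM in Lard L562 and at most 17.2 CPM on CHT, and S100A8 and S100A9, the calprotectin subunits, stayed at or under 7.4 CPM in the Lard and CHT aortas.

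Among chemokines and their receptors, 6 of 15 were lower on Lard (40%, against 7.33% of all genes) and 0 higher (median −1.89). CXCR4, the receptor for CXCL12, was at 0.167 to 1.78 CPM on Lard and 6.42 to 19.9 CPM on CHT (−3.73, SE 0.42, edgeR adjusted p = 1.21e-06). CCL2, which draws monocytes, was at 0.748 to 5.35 and 4.69 to 23.4 CPM (−1.89), and CXCL10, an interferon-induced chemokine, differed by −3.58. CXCL8, a neutrophil chemokine, was at most 2.32 CPM in any Lard or CHT aorta (−2.58), and CCL5 was not called (−1.41, adjusted p = 0.277).

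Of 10 cytokines, 2 were lower and 1 higher on Lard, against 7.33% and 2.02% of all genes. TNF was read 11 times over the 7 Lard libraries and at 0.549 to 3.31 CPM in the CHT libraries, a CHT to Lard ratio of 18.5 (95% exact counting interval 10.1 to 37.7, which covers counting error only). IL1RN, the interleukin 1 receptor antagonist, differed by −3.08. IL16, a chemoattractant of CD4+ cells, was higher (0.87), and IL1B, at no more than 1.36 CPM, did not differ detectably at this depth (0.05, SE 0.69, adjusted p = 0.976).

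Of 8 adhesion molecules, 3 were lower on Lard (37.5%, against 7.33% of all genes), and the cells that express them were not separated here. CD44, the hyaluronan receptor (−1.05, 130 to 217 CPM on Lard and 258.1 to 490 CPM on CHT), ICAM2 (−1.13) and SELP, P-selectin (−1.67), were lower, while ICAM1 (−0.75, adjusted p = 0.324) and SELE, E-selectin (−1.35, adjusted p = 0.161), were not called. Of 14 endothelial markers, only EMCN, endomucin, was called (−1.27), a share of 7.14%, while 6 had an unadjusted p below 0.05 and DESeq2 called 4, all lower. Against Ctrl, 2 of the 14 were higher on Lard and 12 on CHT. The list's median was −0.78, VWF missed the threshold (−1.42, adjusted p = 0.0592) and was called by DESeq2, and KDR, a receptor for vascular endothelial growth factor, was not called (0.15, adjusted p = 0.78). CHT L573 held the lowest value of its group for 13 of the 14 markers.

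Interferon-response genes were lower on Lard. Of 18 measured, 14 were lower (77.8%, against 7.33% of all genes) and 0 higher (median −2.09). OASL, an antiviral gene of the 2′-5′ oligoadenylate synthetase family, was at 0.0585 to 1.35 CPM on Lard (median 0.325) and 2.59 to 37.7 CPM on CHT (median 11.2), a log2 difference of −4.87 (SE 0.62, edgeR adjusted p = 5.75e-06). IFIT3 was at 7.25 to 13.4 CPM on Lard and spread from 13.6 to 188.1 CPM on CHT (−2.73). ISG15, a ubiquitin-like modifier, overlapped, at 1.89 to 6.1 and 2.86 to 50.8 CPM (−2.33).

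The spread was wide within CHT. L559 held the highest value of its group for 15 of the 18 genes and L573 the lowest for 14, and the list's sum ran from 276.3 to 1187 CPM on CHT but from 209 to 288 CPM on Lard and from 186.04 to 260 CPM in Ctrl. Against Ctrl, 1 gene was higher on Lard and 16 on CHT.

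Cell division genes were lower on Lard. Of 26 mitosis genes, 24 were lower on Lard (92.3%, against 7.33% of all genes) and 0 higher (median −2.64), and 20 did not overlap. CDK1, the mitotic kinase, was at 0.111 to 0.997 CPM on Lard (median 0.557) and 2.59 to 10.2 CPM on CHT (median 3.61), a log2 difference of −3.28 (SE 0.65, edgeR adjusted p = 9.37e-04). TOP2A, the topoisomerase of condensing chromosomes, was at 3.2 to 12.4 and 17.5 to 50.9 CPM (−2.31), NCAPH, a condensin subunit, differed by −2.15, KIF20A, a cytokinesis motor, by −2.67, ANLN, a contractile ring scaffold, by −2.30, and AURKA, a spindle kinase, by −2.75. L572 was the highest CHT library for 22 of the 26 genes and L562 the highest Lard library for 23.

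Of 16 DNA replication genes, 9 were lower (56.2%, against 7.33% of all genes) and 0 higher (median −0.80). Among the lower were RRM2, a subunit of ribonucleotide reductase (−3.30), POLE, a replicative polymerase (−2.03), and the helicase subunits MCM4 (−1.63), MCM2 (−1.24) and MCM3 (−0.73). PCNA, the sliding clamp, differed by −0.30 (adjusted p = 0.301). Against Ctrl, 1 of the 26 mitosis genes was higher on Lard and all 26 on CHT.

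Complement held 6 lower genes of 11 (54.5%, against 7.33% of all genes). They included C3AR1 (−3.41) and C5AR1 (−2.54), the anaphylatoxin receptors, VSIG4, a complement receptor of macrophages (−1.81), CFP, properdin (−1.50), and C1QC, a C1q chain (−1.61). PLAU, urokinase, was at 22.8 to 36.6 CPM on Lard and 48.6 to 112 CPM on CHT (−1.47). It was the sole call among 5 plasminogen genes (20%, against 7.33% of all genes). Its receptor PLAUR (−1.33, adjusted p = 0.0994) was not called.

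All 16 contractile genes of smooth muscle had a positive log2 difference (median 0.30), but 1 was called and 3 had an unadjusted p below 0.05. MYH11, smooth muscle myosin, was at 40006 to 76381 CPM on Lard and 23066 to 58417 CPM on CHT (0.45, adjusted p = 0.301), and ACTA2, smooth muscle actin, at 5052 to 12292 and 4318 to 10244 CPM (0.21, adjusted p = 0.679). The 1 called was SMTN, smoothelin, at 582.1 to 1219 and 220 to 564.7 CPM (0.93, adjusted p = 0.0376), and it was called in 7 of the 13 fits that left out a library. Against Ctrl, 0 of 16 were called on Lard (edgeR, 1 at an unadjusted p below 0.05, 0 by DESeq2) and 6 were lower on CHT.

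No difference was detected in the fibrillar collagens COL1A1 and COL3A1, with COL1A1 at 185.6 to 2995 CPM on Lard and 708 to 2890 CPM on CHT (−0.40, adjusted p = 0.674) and COL3A1 at 3908 to 9308 and 3737 to 10890 CPM (−0.01, adjusted p = 0.984). Of 31 other matrix genes, 5 were lower and 1 higher, against 7.33% and 2.02% of all genes. FBN2, fibrillin 2, was at 2.19 to 6.46 CPM on Lard and 8.54 to 25.2 CPM on CHT (−2.07), VCAN, the proteoglycan versican, differed by −0.74 and ECM1 by −1.22, all without overlap. CILP, a cartilage matrix protein, was the 1 that was higher (1.24). FN1, fibronectin (−0.96, adjusted p = 0.0678), TNC, tenascin C (−0.39, adjusted p = 0.733), and POSTN, periostin (0.23, adjusted p = 0.706), were not called. TIMP1, a protease inhibitor, was lower (−1.02), and MMP2 was not called (−0.11, adjusted p = 0.774).

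A minority of cartilage and bone genes were higher on Lard, in some aortas and not in others. Of 20 collagen chains, 3 were higher (15%, against 2.02% of all genes) and 0 lower: COL11A1 (2.94) and COL11A2 (4.18), the type XI chains of cartilage, and COL24A1, a collagen of forming bone (3.45). Of 16 ossification genes, 4 were higher (25%) and 0 lower: TNFSF11, the osteoclast factor RANKL (5.27), SP7, the osteoblast factor osterix (6.09), PHEX, an osteocyte peptidase (1.84), and BGLAP, osteocalcin (2.71). MMP13, the collagenase of hypertrophic cartilage, was also higher (5.58, SE 1.51, edgeR adjusted p = 0.0139). None of these genes separated the diets completely. The summed level of the 16 ossification genes overlapped, at 181.24 to 1576.6 CPM on Lard (median 776.4) and 523.7 to 1077 CPM on CHT (median 665.6). Against Ctrl, 6 ossification genes were higher on Lard and 6 on CHT, and 7 and 6 collagen chains were.

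MMP13 shows the pattern. In the Lard aortas it was at 263.8 CPM in L562, 68.6 in L575, 29.3 in L578, 19.5 in L577, 2.37 in L564, 0.16 in L576 and 0 in L563. In the CHT aortas it was at 5.71 CPM in L561, 1.03 in L559 and under 0.1 CPM in the other 4. COL11A2 followed a similar order, from 0 CPM in L576 and 1.11 in L563 to 54.5 in L562 and 123 in L578. SP7 was read 212 times over the Lard libraries and 2 times over the CHT libraries, a ratio of 91.8 (exact 95% counting interval 25.1 to 763), but 145 of the 212 reads were in 1 library and 2 Lard libraries held 0. TNFSF11 was read 5 times over the CHT libraries, and its Lard to CHT ratio was 42.9 (exact 95% counting interval 18.2 to 133). Of its Lard reads 110 were in 1 library, and 2 Lard libraries held 0. Both intervals cover counting error only, not the spread between rabbits. L562 was the highest Lard library for 10 of the 16 ossification genes, and without it SP7 and TNFSF11 remained called, as did COL11A2, whereas MMP13, BGLAP, PHEX, COL11A1 and COL24A1 were no longer past the threshold.

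These calls depended on which libraries were fitted. When only the 13 Lard and CHT libraries were fitted, none of the 3 collagen chains was called, BGLAP (adjusted p = 0.0644), PHEX (adjusted p = 0.0657) and MMP13 (adjusted p = 0.0518) missed the threshold, and SP7 and TNFSF11 did not pass the filter on low counts. DLX5, a homeobox factor of bone named here because it was the 1 ossification gene called in that fit, differed by 2.18 there (adjusted p = 0.0388). COL2A1, the main cartilage collagen, was at 0 to 657 CPM on Lard and 0.219 to 60 CPM on CHT and was not called (3.92, SE 1.47, adjusted p = 0.0867), although DESeq2 called it. RUNX2, the master factor of bone (0.93, adjusted p = 0.477), ALPL, the bone phosphatase (0.46, adjusted p = 0.772), IBSP, bone sialoprotein (3.11, adjusted p = 0.106), SPP1, osteopontin (−0.20, adjusted p = 0.874), and SOX9, the cartilage factor (0.39, adjusted p = 0.534), were not called. SPP1, RUNX2, ALPL and IBSP were all higher than in Ctrl on each diet: SPP1 was at 23.7 to 1008 CPM on Lard, 285 to 793 CPM on CHT and 20.2 to 83.3 CPM in Ctrl.

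**Figure D4:**
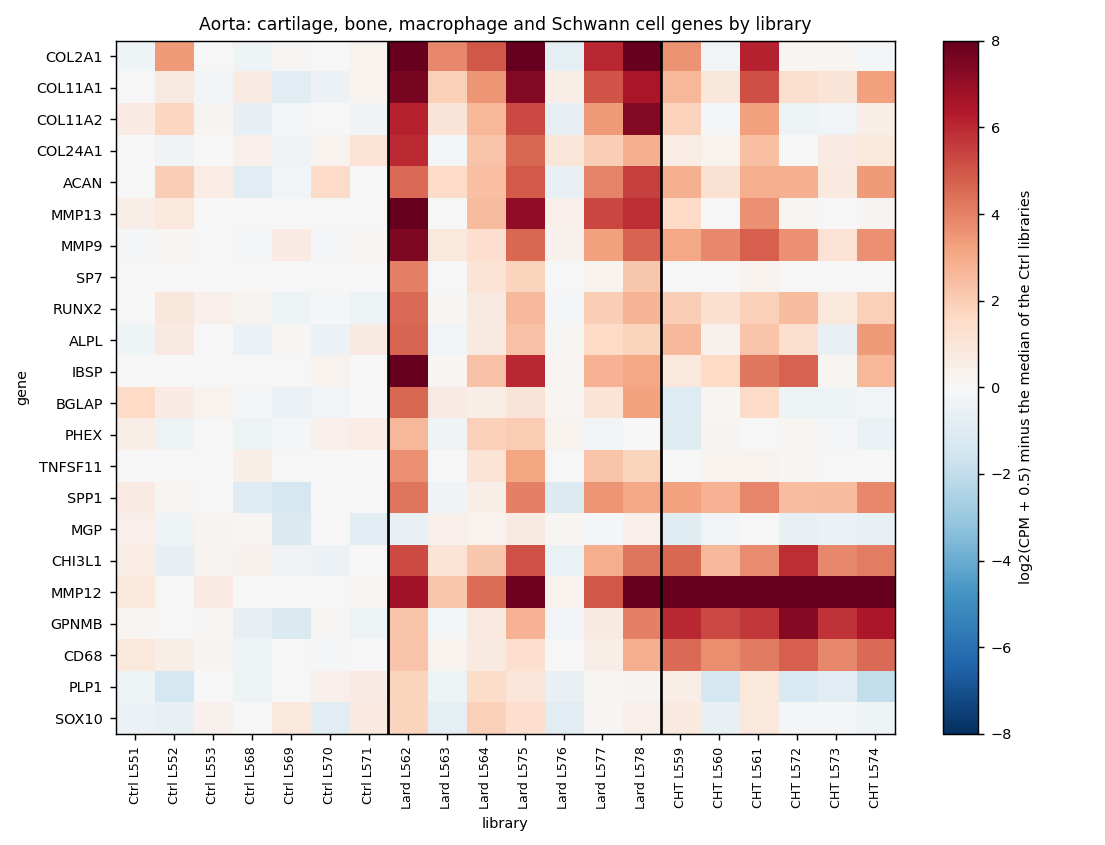
Colours give log2(CPM + 0.5) of 22 cartilage, bone, macrophage and Schwann cell genes (rows) in each Ctrl, Lard and CHT aorta (columns) minus the median of the Ctrl aortas, with the scale ending at ±8. Cartilage and bone genes such as MMP13 are high in Lard L562, L575 and L578 and near Ctrl in L576, while GPNMB and CD68 are high in all 6 CHT aortas.

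In the Lard group L562, L575 and L578, the 3 libraries highest for CD68, were also the 3 highest for MMP13, COL11A1, COL11A2 and SP7. They were not for TNFSF11, BGLAP, PHEX and SPP1, and PHEX in L578, at 1.47 CPM, was close to its lowest Lard value of 1.17 CPM. Of 9 markers of nerve and Schwann cells, 2 were higher on Lard (GFRA3 1.39, SCN7A 1.06), or 22.2% against 2.02% of all genes, a count that fell to 0 without Lard L562 or L564 or CHT L572, L573 or L574 and rose to 5 without CHT L561. The list summed to 46.1 to 221 CPM on Lard and 19.4 to 117 CPM on CHT, and L562 was the highest Lard library in 6 of 9. SOX10, a defining gene of Schwann cells, stayed at or under 3.25 CPM. The part of macrophages and nerve in the cartilage and bone result was not tested.

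Mineral handling and growth factor pathways were examined as well. Of the 14 tested genes of the mineral and phosphate handling list, which does not hold XPR1 or PHEX, both described above, 0 were called (edgeR, 7 at an unadjusted p below 0.05, 1 by DESeq2). The nearest were ENPP1, which makes the calcification inhibitor pyrophosphate (0.44, adjusted p = 0.0521, 98.2 to 137 CPM on Lard and 76.5 to 117 on CHT), and MGP, matrix Gla protein, another inhibitor (0.67, adjusted p = 0.0621, 2403 to 5926 and 1875 to 3517 CPM). ANKH, a pyrophosphate exporter, differed by 0.39 (adjusted p = 0.126). Of 28 genes of the BMP and TGF-beta pathway, only BMP6 was called (3.57%, against 9.35% of all genes), at 0.819 to 6.19 CPM on Lard and 1.35 to 19.3 CPM on CHT (−2.55), while BMP2 was not (0.89, adjusted p = 0.135).

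Of 27 Wnt pathway genes, 4 were higher on Lard (14.8%, against 2.02% of all genes) and 0 lower (median 0.51). SFRP4, a secreted Wnt antagonist, was at 9.67 to 18.8 CPM on Lard and 3.83 to 7.63 CPM on CHT, without overlap (1.19, SE 0.26, edgeR adjusted p = 0.00215), and FZD4, a receptor, differed by 0.72. SOST, sclerostin, at 6.87 to 14.8 and 2.42 to 7.63 CPM, and DKK1 (2.03), both inhibitors, were called in 7 and 4 of the 13 fits that left out a library, and the list's count ranged from 2 to 7 over those fits. AXIN2, a general readout of Wnt signalling, was not called (0.41, adjusted p = 0.364). Of 10 Notch genes, 0 were called (edgeR, 2 at an unadjusted p below 0.05, 1 by DESeq2), with HEY1 at 0.31 and HES1 at −0.30.

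Lists of energy metabolism and stress were compared next. Of 17 respiratory chain subunits, 0 were called (edgeR, 1 at an unadjusted p below 0.05, 0 by DESeq2; median −0.02), and of 16 glycolysis and hypoxia genes only HK2, hexokinase 2 (−0.81), was (6.25%, near the 7.33% of all genes), while 8 had an unadjusted p below 0.05, all lower, and DESeq2 called 2. In the ER stress list, 2 of 17 were lower (11.8%, near the 7.33% of all genes), PDIA6, a disulfide isomerase (−0.63), and PSAT1, a serine synthesis enzyme (−2.02), whereas the chaperone HSPA5 differed by −0.10 (adjusted p = 0.718) and DDIT3 by 0.19 (adjusted p = 0.49). Of 12 NRF2 and glutathione genes, 3 were lower (25%, against 7.33% of all genes), among them SLC7A11, the cystine importer (−2.24), and SRXN1, sulfiredoxin (−0.89). Of 16 immediate early and heat shock genes, IER3 alone was lower (−0.80, a share of 6.25%), and FOS and EGR1 differed by 0.16 and −0.06. BAX, an apoptosis effector, was the 1 of 7 p53 and senescence genes called (−0.95, a share of 14.3%).

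Of 11 clock genes, 2 were higher and 1 lower, against 2.02% and 7.33% of all genes. CRY1, a repressor of the clock, was at 12.9 to 22.7 CPM on Lard and 3.94 to 11.2 CPM on CHT (1.23), PER2, its partner, was higher (1.93), and NR1D1, which encodes REV-ERB alpha, was lower (−1.99, adjusted p = 0.0474, called in 4 of the 13 fits that left out a library). The hour of tissue collection was not given in the sources used here. Of 8 adipocyte markers, 2 were higher (25%, against 2.02% of all genes), among them CIDEA, a lipid droplet protein, at 26.1 to 61.9 CPM on Lard and 7.11 to 44.1 CPM on CHT (1.19), while ADIPOQ, adiponectin, was not called (0.26, adjusted p = 0.771). Of 8 adventitial fibroblast markers, 0 were called (edgeR, 5 at an unadjusted p below 0.05, 0 by DESeq2), with DPT, dermatopontin, at 0.71. Of 13 heart muscle markers, 0 were called (edgeR, 2 at an unadjusted p below 0.05, 1 by DESeq2), as was the case for 4 red blood cell markers (edgeR, 0 at an unadjusted p below 0.05, 0 by DESeq2). The 2 vitamin D targets were not called (edgeR, 0 at an unadjusted p below 0.05, 0 by DESeq2), and VDR, the vitamin D receptor, was at 0.214 to 4.58 and 0.604 to 2.67 CPM.

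The Lard against CHT difference was then compared with that in the aortic valve of the same rabbits. Tissue and plate cannot be fully told apart in this comparison, as described below. A gene without an interaction call is not thereby shown to respond alike in both tissues. In a joint fit of 54 aortic and aortic valve libraries, 52 of 16125 genes (0.322%) had a different Lard against CHT response in the 2 tissues (edgeR interaction test), 34 (0.211%) with a higher value in the aorta and 18 (0.112%) with a lower one. None of the 20 genes of smallest p was among them (1 at an unadjusted p below 0.05, GGH), and the smallest adjusted p of the 20 was 0.279. ABCA1 differed by −3.58 in the aorta and −3.98 in the valve, and MSMO1 by 1.61 and 1.64.

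**Figure D5:**
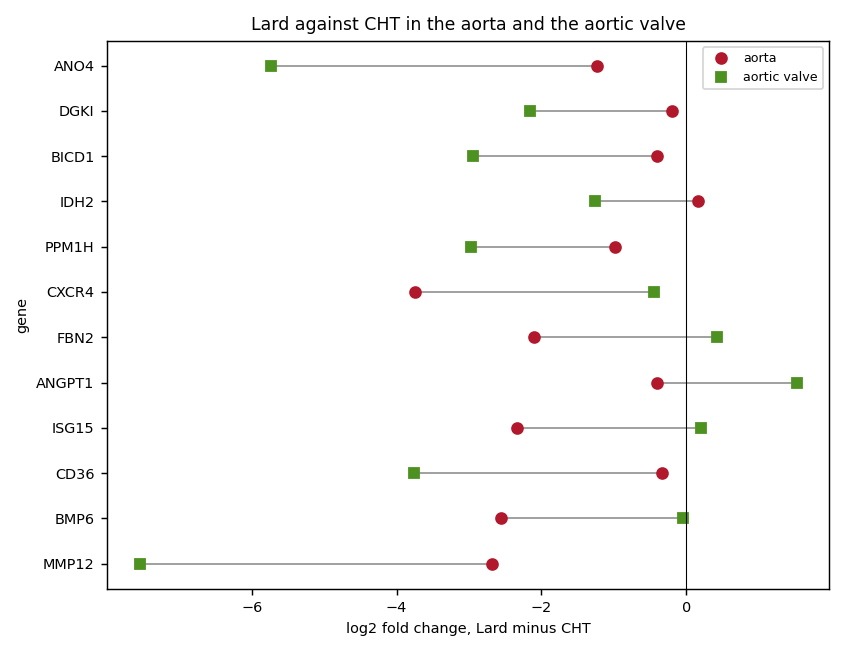
For 12 genes whose response differed between the tissues, the circle gives the log2 difference of Lard against CHT in the aorta and the square that in the aortic valve, on the x axis. CXCR4, FBN2, BMP6 and ISG15 lie far left of 0 in the aorta alone, and ANO4 and MMP12 lie further left in the valve.

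Some immune and matrix genes responded in the aorta and not detectably in the valve. CXCR4 differed by −3.75 in the aorta and −0.44 in the valve, where it was at 25.03 ± 4.86 CPM on Lard and 34.0 ± 10.3 CPM on CHT (SD, n = 7 and 6), an interaction of −3.31 (SE 0.54, edgeR adjusted p = 2.73e-04). FBN2 differed by −2.10 and 0.42, BMP6 by −2.56 and −0.04 and ISG15 by −2.34 and 0.20, interactions of −2.52, −2.52 and −2.54. Others responded more in the valve: ANO4, an anoctamin membrane protein, differed by −1.23 in the aorta and −5.73 in the valve (interaction 4.50), MMP12 by −2.68 and −7.54 (4.86), and CD36 by −0.34 and −3.76 (3.42). DGKI differed by −0.20 in the aorta and −2.16 in the valve, BICD1 by −0.40 and −2.94, IDH2 by 0.17 and −1.25 and PPM1H by −0.98 and −2.97. Their interactions were 1.96, 2.54, 1.42 and 1.99. ANGPT1, angiopoietin 1, differed by −0.40 in the aorta and 1.52 in the valve. A gene named U1, one of many copies of a small nuclear RNA whose reads may be shared between them, had an interaction of −6.22 at 19.4 ± 46.5 CPM (SD, n = 6) on CHT, and it was no longer called with the rabbit as a block (adjusted p = 1).

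Plate limits this comparison. All 6 CHT valves were on plate 1 and the 7 Lard valves were split, 3 on plate 1 and 4 on plate 2, and with only the plate 1 valves 16 genes had a different response, ISG15 no longer among them (adjusted p = 0.403). The part of the plate in the interaction was not tested further.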

How the data were processed

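Total RNA of snap-frozen rabbit tissue had been made into stranded libraries (SMARTer pico kit), sequenced as read pairs and counted per gene by the authors. The deposited table holds raw counts for 29587 genes and is not normalized. The submitters' processing notes name bcl2fastq 2.20 and the OryCun2.0 genome. The 13 libraries were named and grouped from the labels. Counts were tested with edgeR 4.0.16 in R 4.3.3 (filterByExpr, TMM scaling, robust quasi-likelihood) in a model of the 27 aortic libraries, with Lard minus CHT as the contrast; DESeq2 1.42.0, the tool of the study, was an alternative. A gene was called at an adjusted p below 0.05 and a fold over 1.5, and for the interaction with the aortic valve, fitted on 54 libraries, at an adjusted p below 0.05. CPM values are TMM-scaled. The tests were run first on simulated counts.

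The members and the 45 gene lists were chosen with earlier results of these data known. Lists were matched by symbol: of 875 listed genes 590 were tested and 231 symbols were absent. Named genes were the 10 of smallest p in each direction with a symbol, key genes of each list, up to 4 called genes of each list and 5 genes of smallest p in each direction of the interaction. Genes named outside this rule were chosen after their values were seen. Of the 204 named genes, 130 were called, and of all 1382 calls 389 had no symbol.

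The labels give each aorta and valve its rabbit. Deviations from the group means in the 2 tissues correlated by more than 0.1 in 10 of 13 rabbits (median 0.23). Alternatives were other scalings, no filter, fewer libraries, a test against 1.5-fold, the rabbit as a block, and leaving out each library. For the interaction each rabbit was left out with both its tissues. No sequence or coordinate is given, since no reference of the build was used here. Some genes of the lists are counted in them but not reported here by name.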

Additional observations from a re-analysis of the deposited data

Results flagged for a closer look

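For 71 genes described above, the highest and lowest library of the 7 Lard and of the 6 CHT aortas was compared with the rest of its group, 142 groups in all. A library stood apart in 20, counting 1 that rests on 2 reads, by its gap to the next library as a share of the group's range. How often chance alone would do this in CPM values of these genes was not worked out. No cause of any of these values was tested.

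Cartilage and bone genes made up most of them. In Lard L562, MMP13 was at 263.8 CPM, SP7 at 7.61, BGLAP at 43.6, IBSP at 219, RUNX2 at 15.2 and the Wnt antagonist SFRP4 at 18.8 CPM, each above the other 6 Lard aortas. In CHT L561, COL2A1 was at 60.04 CPM, COL11A1 at 51.6, COL11A2 at 7.07, MMP13 at 5.71 and BGLAP at 4.82 CPM, above the other 5 CHT aortas. SP7 met the same criterion in CHT L561 at 0.105 CPM, but on 2 reads with the other 5 CHT aortas at 0, so it does not show a library that stood apart.

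Among other genes, CHT L572 stood apart for GGH at 120 CPM and CHI3L1 at 135 CPM, and CHT L559 for the interferon-response genes IFIT3 at 188.1 CPM and ISG15 at 50.8 CPM. In the Lard aortas, L564 stood apart for HOMER2 at 53.6 CPM, L578 for GPNMB at 267.9 CPM and, as the lowest, for ENPP1 at 98.2 CPM, and L575 for BMP6 at 6.19 CPM.

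The response to the diets differed between the aorta and the aortic valve in 52 genes by the edgeR interaction test. The log2 interaction was 4.50 for ANO4, 1.96 for DGKI, 2.54 for BICD1, 1.42 for IDH2, 1.99 for PPM1H, −3.31 for CXCR4, −2.52 for FBN2, −1.92 for ANGPT1, −6.22 for U1 and −2.54 for ISG15.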

How the results depend on the processing

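None of the 130 called named genes changed sign under any alternative run (23 of the 74 not called did), and 83 of the 130 kept their call in all those that used every library or a named subset of groups (105 without the test against a fold of 1.5), while 98 kept it in every fit that left out 1 library. The 1382 calls became 598 when the test itself required a 1.5-fold change (0.23% higher and 3.82% lower, against 2.02% and 7.33%, all shares here being of the 14777 genes that passed the filter with every aortic library), and 1658 with DESeq2. Leaving out the mitochondrial genes, chosen after seeing the data, gave 1383. Without a filter on low counts 25558 genes were tested, and the higher genes among them equalled 1.31% of the 14777. Leaving out 1 library gave 0.968% to 2.29% higher, with 0.968% without CHT L572, 0.974% without CHT L574 and 1.35% without Lard L564, 5.74% to 8.23% lower, and 991 to 1555 calls in all. The 52 genes that differed between aorta and valve became 16 with plate 1 valves only, 26 with only Lard and CHT libraries and 34 without a filter. For this count a whole rabbit was left out, that is its aorta and its valve together, which gave 14 to 52. It was 14 without the rabbit of CHT L574, 27 without that of Lard L562 and 28 without that of CHT L559. It was 29 without the rabbit of CHT L560 or Lard L563 and 34 without that of Lard L564. With the rabbit as a block, pairing the tissues, 42 genes differed, and among the named genes only the call of U1 changed. In lists, the ossification count of 4 became 2 with the 1.5-fold test, and the nerve count of 2 became 0 without Lard L562 or L564 or CHT L572, L573 or L574, and 5 without CHT L561. Collagen calls (3) became 1 without Lard L562, CHT L572 or CHT L574 and 5 without CHT L561. At 10 CPM in the smallest library counting error was 7.61%, so genes under 1 CPM are the least certain. The causes of these changes were not tested.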

Other observations

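A set of genes chosen after their values were seen showed further differences between Lard and CHT (edgeR adjusted p below 0.05 for each gene given as called). Of 5 genes known to be induced by glucocorticoids, 3 were called higher on Lard, against 2.02% of all genes. The 5 were picked after their values were seen, so the count says nothing about such genes as a group. ZBTB16, a transcription factor, was at 171.4 to 332 CPM on Lard, 73 to 139 CPM on CHT and 156.9 to 288 CPM in Ctrl (log2 difference 1.18), and KLF9 was also called (0.95), as was TSC22D3 above. FKBP5 (0.72, adjusted p = 0.144) and PER1 (0.88, adjusted p = 0.142) were not. MLANA and TRPM1, known from pigment cells, were lower on Lard, MLANA at 0.585 to 4.58 against 21.4 to 50.2 CPM (−3.94) and TRPM1 at 0.0534 to 18.4 against 49.7 to 106 CPM (−3.99). ANKRD1, a mechanosensitive gene of muscle, was at 0 to 1.19 CPM on Lard and 7.07 to 141 CPM on CHT. SLC1A2, a glutamate transporter, was at most 0.339 CPM on Lard and at least 5.61 CPM on CHT. ADGRE2, a leukocyte adhesion receptor, was at most 0.509 CPM against at least 3.7 CPM.

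Genes of nervous tissue, some expressed by glia, were called in both directions: GFAP (2.03), FABP7 (2.03), PRPH (2.15) and CNTN2 (1.88) were higher on Lard, and NEFL (−4.00) lower. Among matrix genes, COL9A2 (2.13) and LRRC15 (3.07) were higher, and COL9A1 was not called (3.62, adjusted p = 0.102).

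CYTB stood at 1 level, high or low, in all libraries of a rabbit. Of 27 rabbits, 14 had all libraries at 753 to 4950 CPM and 13 all at 0.398 to 8.92 CPM, and no rabbit was mixed. The gene ENSOCUG00000025982, without a symbol, ran the other way, at 9.42 to 583 CPM in the 64 libraries with low CYTB and at most 3.75 CPM in those with high CYTB, apart from 1 library at 390 CPM. None of the 13 mitochondrial genes was called between the diets.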
